A study of Mus with 18 samples.

Results

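Leukocyte adhesion molecules are the surface proteins by which white blood cells are captured on, and pass through, the vessel wall. The genes described here are Icam1, Icam2, Vcam1, Sele, Selp, Selplg, Cd44, Jam2 and Jam3. They were taken by symbol, in a choice made with earlier results of these data known. All 9 were found among the 21401 gene symbols of each expression table. RNA was sequenced from C2C12, a mouse myoblast cell line, and from the gastrocnemius, a calf muscle, of male C57BL/6 mice of wild-type genotype. Each experiment held control, LPS-treated and LPS-MIC-1-treated groups of 3 libraries, 9 libraries per experiment. LPS is a bacterial lipopolysaccharide that provokes inflammation, and MIC-1 is moringa isothiocyanate-1, a plant compound from moringa seeds. In C2C12, LPS was used at 1 μg/mL, and LPS-MIC-1 samples also received 10 μM MIC-1 for 24 h per the labels, whereas the paper's text names a lower concentration of MIC-1. In mice, LPS was injected intraperitoneally at 10 mg/kg and muscle was taken 16 h later. LPS-MIC-1-treated mice had been gavaged daily with 80 mg/kg MIC-1 in 10% DMSO on the 3 preceding days. Controls are labelled as saline vehicle in both experiments, whereas the paper names ethanol for the cells and DMSO for the mice. No age of the mice is stated. C2C12 is a single cell line, and nothing states that its libraries came from separate cultures, so its p-values measure only the spread between these samples.

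Selectins are lectins that let flowing leukocytes tether and roll. P-selectin (Selp) and E-selectin (Sele) act on endothelium, and their main leukocyte ligand is PSGL-1, the product of Selplg. Members of the immunoglobulin family (Icam1, Icam2, Vcam1) then hold the cell by binding its integrins, and the junctional adhesion molecules (Jam2, Jam3) line the cell contacts it crosses. CD44 binds hyaluronan and, when suitably glycosylated, E-selectin. In muscle most of these molecules are known from vessels, while Vcam1, Cd44 and the Jam genes are also expressed by myogenic and mesenchymal cells.

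Lists of cell type markers were summed in each library to check the labels against the cells. In the C2C12 libraries labelled control, the 13 macrophage markers found summed to between 10108 and 10156 FPKM (fragments counted per length of transcript and per library size). The libraries labelled LPS had between 7044 and 7232. The 9 myoblast markers summed there to at most 0.396 FPKM in control and 2.24 FPKM in LPS. The LPS-MIC-1 libraries had the reverse, with between 779 and 996 FPKM for myoblast markers, and 272.8, 79.6 and 90.9 FPKM for macrophage markers in replicates 1, 2 and 3. The libraries labelled control and LPS therefore go against the cell line they are labelled with, and all groups below are named by label. In C2C12, treatment and this difference in markers cannot be told apart, since no library of those 2 groups carried the myoblast profile. Endothelial markers were low in every C2C12 library (3.68 to 14.1 FPKM in sum), and Tek, Tie1, Emcn, Robo4, Sox17 and Erg were listed at 0 in all of them.

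**Figure D1:**
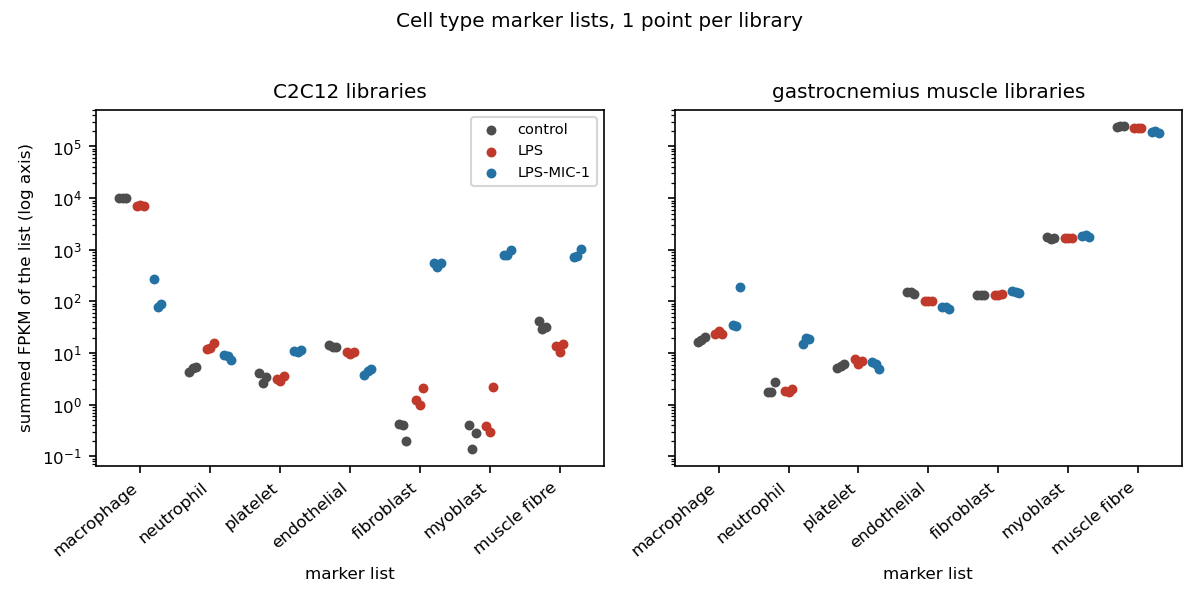
Summed FPKM of cell type marker lists on a log axis, 1 point per library, for C2C12 (left) and gastrocnemius muscle (right), coloured by labelled group. In C2C12 the macrophage sum is between 7044 and 10156 in every control and LPS library and at most 272.8 in LPS-MIC-1, and in muscle LPS-MIC-1 replicate 3 has 191.0 against 33.1 and 35.4 in the other two.

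Gastrocnemius libraries carried muscle fibre markers in every group, with sums from 183261 to 247548 FPKM. Control samples had an endothelial sum of 139 to 151 FPKM, LPS-treated samples of 101 to 103 and LPS-MIC-1-treated samples of 72.7 to 78.2, with Erg listed at 0 throughout. Nfkbia, the feedback inhibitor of NF-κB that LPS is known to induce, had 20.3, 23.1 and 19.5 FPKM in control, 23.4, 22.9 and 23.6 FPKM in LPS and 115, 114 and 107 FPKM in LPS-MIC-1. The libraries labelled LPS thus overlapped control in this gene, with a log2 difference of 0.16 (SE 0.063, limma adjusted p = 0.142), and Icam1 and Selp, which LPS is also known to induce, likewise overlapped between control and LPS and were highest in LPS-MIC-1. For these 3 genes the libraries labelled LPS go against their label, and every muscle group below is named by label. No exchange of labels was assumed or tested. The neutrophil sum was at most 2.74 in control and 2.02 in LPS, whereas LPS-MIC-1 samples had 15.0 to 19.98. Between LPS-MIC-1 and LPS, 2 of 4 tested neutrophil and 3 of 8 tested macrophage markers rose and 0 fell. Of 10 tested endothelial markers, 2 fell and 1 rose. Beside these counts, 9.67% of all tested genes rose and 5.44% fell. The neutrophil marker S100a8 averaged 7.38 FPKM with LPS-MIC-1, against 0.491 FPKM with LPS alone and 0.119 FPKM for controls. It passed the filter of a mean over 1 FPKM only through LPS-MIC-1, so it had to differ between groups once tested. Cxcr2, a further neutrophil marker, averaged 1.44 FPKM with LPS-MIC-1, 1.17 FPKM with LPS alone and 1.58 FPKM for controls. In Cxcr2, LPS-MIC-1 overlapped both other groups. LPS-MIC-1 replicate 3 stood apart by its macrophage sum, with 191.0 FPKM, of which Lyz2 made 78.3, against 5.27 and 3.93 FPKM of Lyz2 in replicates 1 and 2. Because tissue and cells were measured in bulk, fewer cells of a type and less RNA per cell cannot be told apart. The 2 tables were normalized separately, so no test was run across them. Depth in reads per library is not stated, and values near 0 FPKM rest on few reads.

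For the C2C12 libraries, the question was which adhesion genes differed between labelled groups. A gene was called when its log2 fold change of FPKM + 0.1 was over 1 in size and its adjusted p was under 0.001 (limma with Benjamini-Hochberg adjustment over 10877 genes). With 3 libraries against 3, an exact permutation test cannot go below 0.1. Of the 9 genes, 8 passed the filter of a mean over 1 FPKM, and Sele did not. Between LPS and control, 1 of the 8 was higher and 2 were lower, where 10.9% of all tested genes were higher and 10.0% were lower. Between LPS-MIC-1 and LPS, 4 were higher and 3 lower, beside 24.3% and 25.6% of all genes. Between LPS-MIC-1 and control, 5 were higher and 3 lower, beside 21.1% and 22.1%. The 2 LPS-MIC-1 comparisons share the LPS-MIC-1 libraries. Vcam1, Selp and Jam3 passed the filter only through LPS-MIC-1, and Icam2 only through control, as their means over the other 6 libraries were at most 0.572 FPKM. These 4 had to differ between groups once they were tested, so the counts are a description. Among all tested genes, 12.3% passed only through their highest group.

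**Figure D2:**
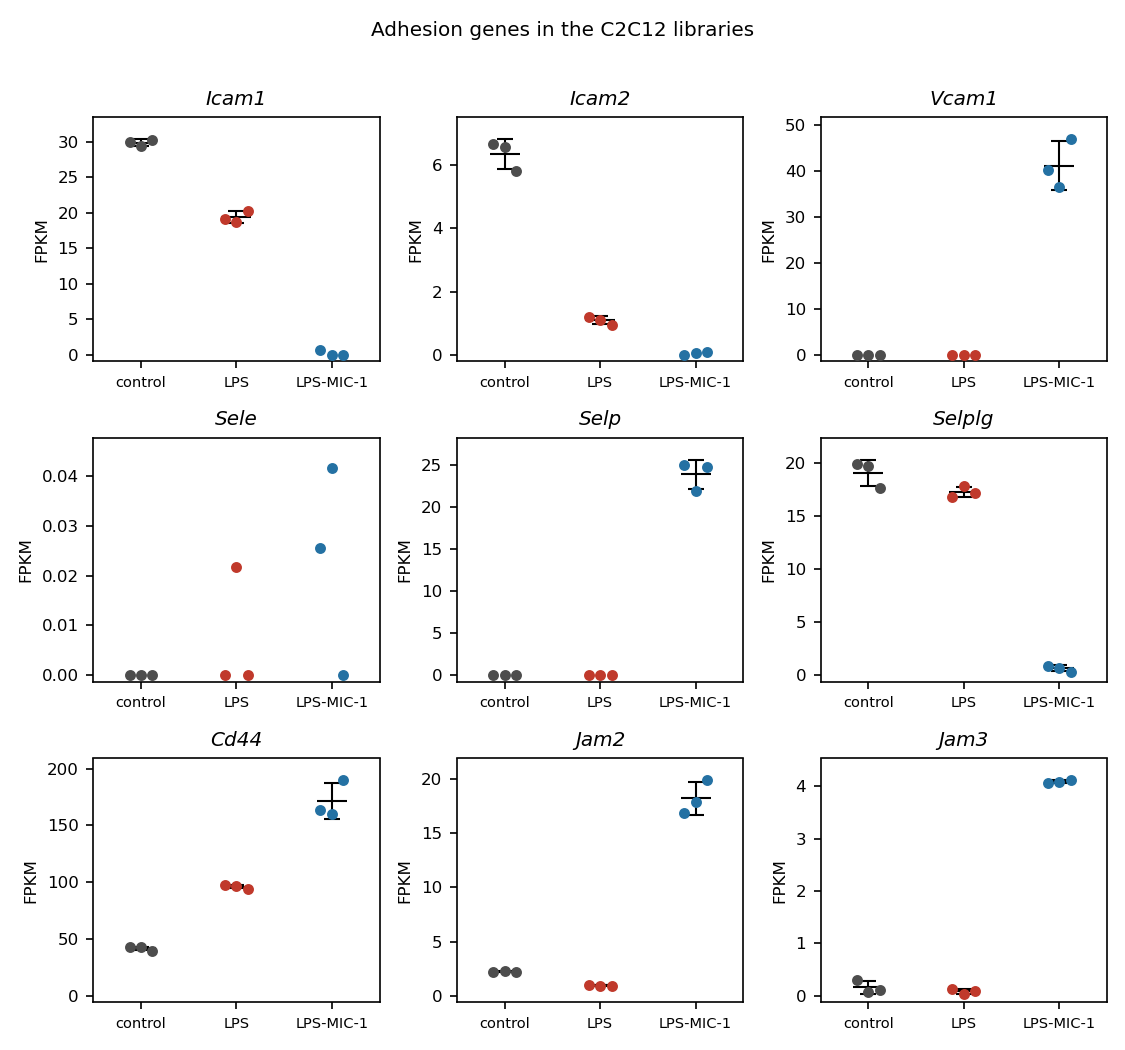
FPKM of the 9 adhesion genes in C2C12 libraries on linear axes, 1 point per library, with the mean and SD of 3 libraries as bars where no library was listed at 0. Icam1, Icam2 and Selplg are lowest in LPS-MIC-1, whereas Vcam1, Selp, Cd44, Jam2 and Jam3 are highest there.

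Among the integrin ligands, Icam1, which is bound by the leukocyte integrins LFA-1 and Mac-1, had 30.0, 29.3 and 30.3 FPKM in control. It had 19.1, 18.7 and 20.3 FPKM in LPS. In LPS-MIC-1 it had 0.664 FPKM in replicate 1 and was listed at 0 in replicates 2 and 3. The 3 groups did not overlap, and every LPS library lay under every control library. The log2 difference of LPS from control was -0.62 (SE 0.70, limma adjusted p = 0.476), which did not pass. Icam1 fell between LPS and LPS-MIC-1, by a fitted log2 fold change of -6.63 (SE 0.70, limma adjusted p = 3.31e-05) that depends on the added 0.1.

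The single LPS-MIC-1 library with an Icam1 signal was also the one with the largest macrophage sum. In it, Icam1 was at 3.43% of its mean in the LPS libraries, and the single macrophage markers were at 2.49% to 6.66% of theirs, with a median of 2.85%. In replicates 2 and 3 the median marker was at 0.0930% and 0.0381%, and the highest, Cd14, was at 3.62% and 4.33%. The part of macrophage RNA in the Icam1 value was not tested. Without LPS-MIC-1 replicate 1, the fitted log2 fold change of Icam1 against LPS was -7.60 (limma adjusted p = 7.30e-10). The same step took the adjusted p of LPS against control to 0.000129 with an unchanged log2 difference of -0.62, still under the fold threshold, because the spread of each gene was shared by all groups.

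Icam2, a ligand of LFA-1 that resting endothelium carries, had 6.66, 6.58 and 5.80 FPKM in control. It had 1.21, 1.12 and 0.953 FPKM in LPS, and 0, 0.0502 and 0.0957 FPKM in LPS-MIC-1. The 3 groups followed each other downwards with no overlap. Icam2 fell by 2.44 on the log2 scale between control and LPS (SE 0.24, limma adjusted p = 4.63e-05), and the control mean was 5.80 times the LPS mean. It fell by a further 3.05 between LPS and LPS-MIC-1 (SE 0.24, limma adjusted p = 5.01e-06). The first call was lost with a pseudocount of 0.01 (limma adjusted p = 0.0206), and the second with a pseudocount of 1, where the log2 fold change was -0.997.

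Vcam1, the ligand of the integrin VLA-4 and a surface protein of developing muscle, was listed at 0 in the 3 control libraries. In LPS it was listed at 0 in replicates 1 and 2 and had 0.0366 FPKM in replicate 3. In LPS-MIC-1 it had 40.1, 36.4 and 46.9 FPKM. Vcam1 was thus at or near 0 in 6 libraries and among the most abundant of the 9 genes, per length, in the other 3. The rise between LPS and LPS-MIC-1 passed the test, with a fitted log2 fold change of 8.53 (SE 0.17, limma adjusted p = 4.42e-09), in a gene that was tested only because of its LPS-MIC-1 level.

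The selectin genes differed from each other. Selp had 25.1, 21.9 and 24.7 FPKM in LPS-MIC-1, was listed at 0 in all control libraries, and in LPS had 0.0905 FPKM in replicate 3 and 0 in the others. Selp rose between LPS and LPS-MIC-1, with a fitted log2 fold change of 7.59 (SE 0.25, limma adjusted p = 3.30e-08), and it too was tested only because of its LPS-MIC-1 level. Platelet markers, which would mark another Selp-bearing cell, summed to between 10.5 and 11.3 FPKM in LPS-MIC-1 and to at most 4.13 in the other libraries. Of 3 tested platelet markers, 2 rose and 1 fell from LPS to LPS-MIC-1, beside 24.3% and 25.6% of all tested genes. Ppbp went from a mean of 0.0869 to 4.20 FPKM, and Pf4 from 1.88 to 0.108 FPKM. Gp9, Gp6 and Treml1 were listed at 0 in the 3 LPS-MIC-1 libraries, and Gp6 and Treml1 also in control. The part of platelets in Selp was not tested. Sele stayed at the edge of detection, with 0.0217 FPKM in LPS replicate 2, 0.0255 and 0.0414 in LPS-MIC-1 replicates 1 and 2, and 0 in the other 6 libraries.

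Selplg, whose product is the ligand that leukocytes present to P-selectin, had 19.9, 19.7 and 17.7 FPKM in control and 16.8, 17.8 and 17.2 FPKM in LPS. These groups overlapped, and the log2 difference was -0.14 (SE 0.26, limma adjusted p = 0.669). In LPS-MIC-1 Selplg had 0.920, 0.724 and 0.355 FPKM. It fell by 4.58 on the log2 scale against LPS (SE 0.26, limma adjusted p = 6.52e-07), and the LPS mean was 25.9 times the LPS-MIC-1 mean. As a share of its LPS mean, Selplg was at 5.32%, 4.19% and 2.05% in replicates 1 to 3. In replicates 2 and 3 the median macrophage marker was under 0.1%, and the highest, Cd14, was at 3.62% and 4.33%. Without LPS-MIC-1 replicate 1 the log2 fold change was -4.83 (limma adjusted p = 7.21e-07).

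Cd44, the hyaluronan receptor, was the most abundant of the 9 genes per length in all 3 labelled groups. It had 42.7, 42.7 and 39.95 FPKM in control. It had 97.2, 96.7 and 94.4 FPKM in LPS. It had 164.0, 160.4 and 189.9 FPKM in LPS-MIC-1, above every LPS library. Cd44 rose by 1.20 on the log2 scale in LPS (SE 0.067, limma adjusted p = 1.93e-06), which is 2.30 times the control mean. It rose by 2.03 between control and LPS-MIC-1 (SE 0.067, limma adjusted p = 3.09e-08). The step from LPS to LPS-MIC-1 was 0.83 (SE 0.067, limma adjusted p = 5.62e-06), past the adjusted p and under the fold threshold.

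The junctional adhesion molecules JAM-B (Jam2) and JAM-C (Jam3) bind each other. Jam2 had 2.24, 2.31 and 2.20 FPKM in control and 1.03, 0.931 and 0.925 FPKM in LPS. It had 16.9, 17.8 and 19.9 FPKM in LPS-MIC-1. Every LPS library was thus under, and every LPS-MIC-1 library above, the control libraries. Jam2 fell by 1.14 on the log2 scale in LPS (SE 0.099, limma adjusted p = 2.19e-05). It rose by 4.10 between LPS and LPS-MIC-1 (SE 0.099, limma adjusted p = 8.35e-09), to 18.9 times the LPS mean. With a pseudocount of 1, the log2 difference of LPS from control was -0.73, under the fold threshold.

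Jam3 had 0.305, 0.0823 and 0.109 FPKM in control and 0.131, 0.0330 and 0.0985 FPKM in LPS, and these groups overlapped. In LPS-MIC-1 it had 4.06, 4.08 and 4.11 FPKM. Jam3 rose by 4.52 on the log2 scale between LPS and LPS-MIC-1 (SE 0.33, limma adjusted p = 2.87e-06), again in a gene tested only because of LPS-MIC-1. The difference of LPS from control was -0.44 (SE 0.33, limma adjusted p = 0.272).

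Ordered by mean FPKM, the control libraries ran from Cd44 (41.8) through Icam1 (29.9), Selplg (19.1), Icam2 (6.35) and Jam2 (2.25) to Jam3 (0.165), with no overlap between neighbours. In LPS-MIC-1 the order was Cd44 (171), Vcam1 (41.1), Selp (23.9), Jam2 (18.2) and Jam3 (4.08), also without overlap. Selplg, Icam1, Icam2 and Sele followed in that group, each overlapping the next. The 9 genes summed to between 96.0 and 101.7 FPKM in control and to between 241.4 and 286.0 FPKM in LPS-MIC-1.

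In gastrocnemius muscle, the question was whether the same genes differed after LPS with or without oral MIC-1. The threshold on the adjusted p was 0.05 here, over 9475 tested genes. Icam1, Icam2, Cd44, Jam2 and Jam3 passed the filter of a mean over 1 FPKM, and Vcam1, Sele, Selp and Selplg did not. None of the 5 tested genes was called between LPS and control by limma, where 0.654% of all genes were higher and 0.591% lower. At an unadjusted p under 0.05 with the same fold, the count over all genes was 185 (1.95%), and still none of the 5. Between LPS-MIC-1 and LPS, 2 were higher and 0 lower (also 0 at an unadjusted p), beside 9.67% and 5.44% of all genes. Between LPS-MIC-1 and control, 2 were higher and 2 lower, beside 9.33% and 6.12%. Icam1, higher in both, passed the filter only through LPS-MIC-1. It had to differ between groups once tested, so these counts are a description. Among all tested genes, 5.68% passed only through their highest group.

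**Figure D3:**
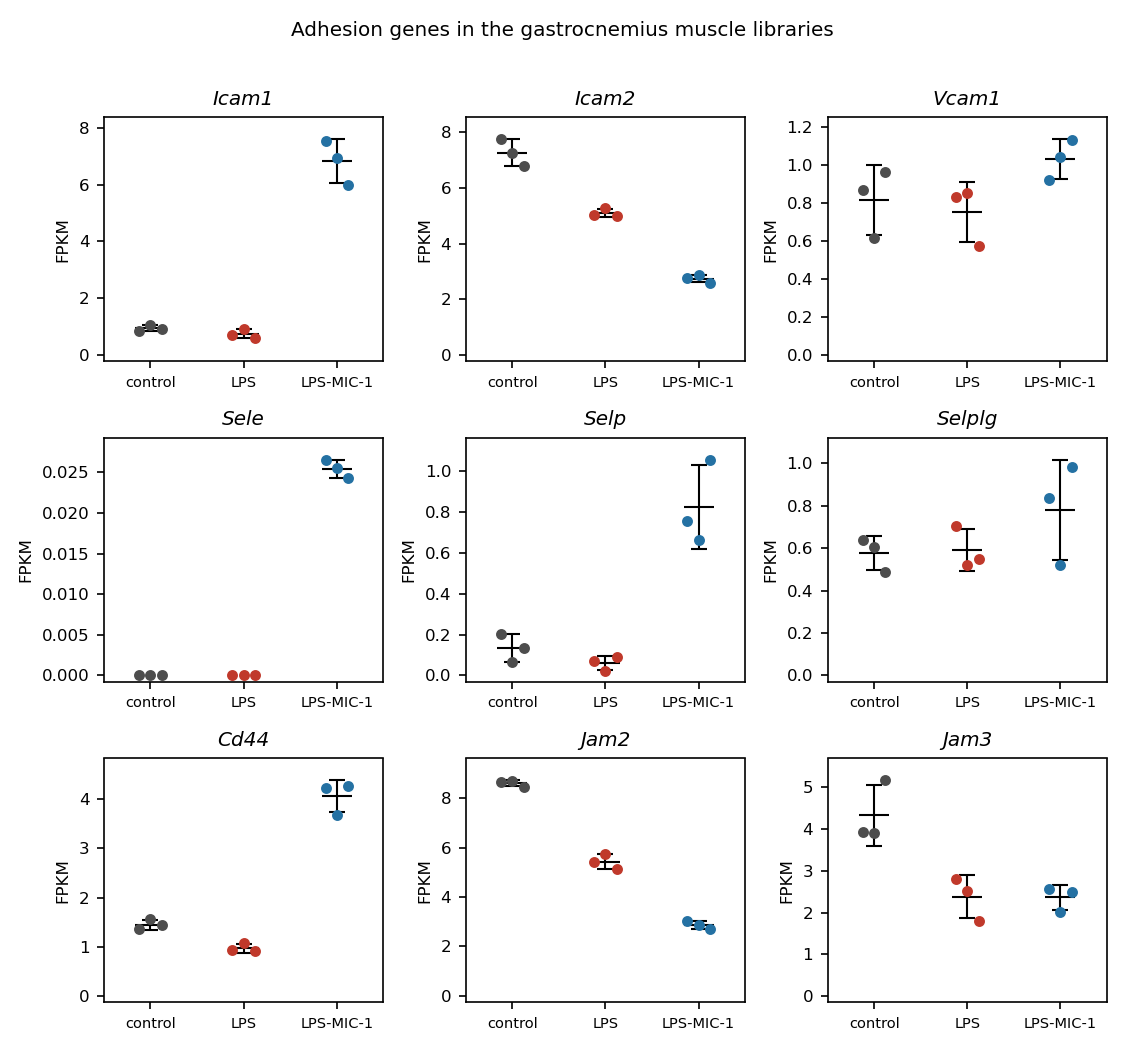
FPKM of the 9 adhesion genes in gastrocnemius libraries on linear axes, 1 point per library, with the mean and SD of 3 libraries as bars where no library was listed at 0. Icam1, Selp and Cd44 are highest in LPS-MIC-1, and Icam2 and Jam2 step down from control through LPS to LPS-MIC-1.

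Icam1 had 0.855, 1.06 and 0.921 FPKM in control muscle. It had 0.708, 0.927 and 0.612 FPKM in LPS-treated muscle. In LPS-MIC-1-treated muscle it had 7.54, 6.93 and 5.99 FPKM. Control and LPS overlapped, and all LPS-MIC-1 samples lay above both. The difference of LPS from control was -0.31 on the log2 scale (SE 0.17, limma adjusted p = 0.272). Icam1 was upregulated in LPS-MIC-1 against LPS, with a log2 fold change of 3.04 (SE 0.17, limma adjusted p = 1.78e-06) and 9.10 times the LPS mean. It passed the filter only through LPS-MIC-1, with a mean of 0.848 FPKM over the other samples. It was the most abundant of the 9 genes per length in LPS-MIC-1-treated muscle, and the fifth or sixth in the other groups.

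Cd44 moved in the same direction. It had 1.36, 1.56 and 1.44 FPKM in control and 0.929, 1.08 and 0.909 FPKM in LPS. It had 4.23, 3.68 and 4.26 FPKM in LPS-MIC-1. The groups did not overlap, with LPS the lowest. Cd44 rose by 1.96 on the log2 scale between LPS and LPS-MIC-1 (SE 0.12, limma adjusted p = 3.47e-06). Its difference of LPS from control was -0.53 (SE 0.12, limma adjusted p = 0.0232), under the fold threshold, and the adjusted p was between 0.0329 and 0.0716 when 1 library was left out.

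Selp did not reach a mean of 1 FPKM and so had no place in the main test. It had 0.203, 0.0674 and 0.136 FPKM in control and 0.0683, 0.0228 and 0.0905 FPKM in LPS. It had 0.755, 0.665 and 1.06 FPKM in LPS-MIC-1, with no overlap with the other groups. When all genes above 0 in at least 3 libraries were tested, the log2 fold change of LPS-MIC-1 against LPS was 2.53 (limma adjusted p = 0.000222). Platelet markers overlapped between the groups, at 5.19 to 6.24, 6.03 to 7.59 and 4.84 to 6.75 FPKM in sum for control, LPS and LPS-MIC-1. Sele was listed at 0 in control and LPS and had 0.0265, 0.0256 and 0.0243 FPKM in LPS-MIC-1.

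The higher levels of Icam1, Cd44 and Selp stood beside the higher neutrophil and macrophage marker sums of LPS-MIC-1-treated muscle, and the part of those cells in them was not tested. The largest macrophage sum was in replicate 3, in which Icam1 was the lowest of its group and Selp the highest. Cd44 was also highest there, narrowly, with 4.26 FPKM against 4.23 in replicate 1 and 3.68 in replicate 2. Without replicate 3 the log2 fold change of LPS-MIC-1 against LPS was 3.13 for Icam1 (limma adjusted p = 1.51e-05) and 1.92 for Cd44 (limma adjusted p = 4.14e-05).

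Icam2 and Jam2, which are characteristic of vessels, went the other way. Icam2 had 7.76, 7.25 and 6.79 FPKM in control. It had 5.04, 5.27 and 5.01 FPKM in LPS, and 2.78, 2.86 and 2.60 FPKM in LPS-MIC-1. Jam2 had 8.64, 8.70 and 8.45 FPKM in control, 5.43, 5.75 and 5.12 FPKM in LPS, and 3.04, 2.87 and 2.72 FPKM in LPS-MIC-1. Neither gene had any overlap between groups, and LPS lay between the other groups for both. Against control, LPS-MIC-1 was lower by -1.37 on the log2 scale for Icam2 (SE 0.073, limma adjusted p = 1.16e-06). For Jam2 the same difference was -1.55 (SE 0.069, limma adjusted p = 3.84e-07).

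The single steps of these genes passed the adjusted p and stayed under the fold threshold. LPS differed from control by -0.50 for Icam2 (SE 0.073, limma adjusted p = 0.00286) and by -0.65 for Jam2 (SE 0.069, limma adjusted p = 0.000533). LPS-MIC-1 differed from LPS by -0.87 for Icam2 (SE 0.073, limma adjusted p = 1.90e-05) and by -0.89 for Jam2 (SE 0.069, limma adjusted p = 1.08e-05). With quantile normalization the last value was -1.02 and passed both thresholds.

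Jam3 had 3.93, 3.90 and 5.18 FPKM in control, 2.80, 2.53 and 1.80 FPKM in LPS, and 2.57, 2.02 and 2.49998 FPKM in LPS-MIC-1. The treated groups overlapped each other and lay under control. LPS differed from control by -0.85 on the log2 scale (SE 0.19, limma adjusted p = 0.0188) and LPS-MIC-1 differed from LPS by 0.01 (SE 0.19, limma adjusted p = 0.979). Without 1 library, the adjusted p of the first difference was between 0.0233 and 0.0600. Icam2, Cd44, Jam2 and Jam3, 4 of the 5 tested genes, were under control in all LPS libraries, as were 17.7% of all genes. The same 4 passed the adjusted p at any fold, as did 7.48% of all genes in that direction.

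Vcam1 and Selplg had low levels in every muscle group. Vcam1 had 0.869, 0.614 and 0.967 FPKM in control. After LPS it had 0.830, 0.856 and 0.572 FPKM, and after LPS-MIC-1 0.922, 1.04 and 1.13 FPKM. For Selplg the control values were 0.638, 0.605 and 0.489 FPKM, followed by 0.705, 0.523 and 0.548 after LPS and 0.837, 0.519 and 0.985 after LPS-MIC-1. LPS-MIC-1 overlapped control for each gene, and all its Vcam1 values lay above those of LPS, while Selplg overlapped there too. Without the filter, the log2 differences of LPS-MIC-1 from LPS were 0.42 for Vcam1 (limma adjusted p = 0.184) and 0.32 for Selplg (limma adjusted p = 0.370).

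**Figure D4:**
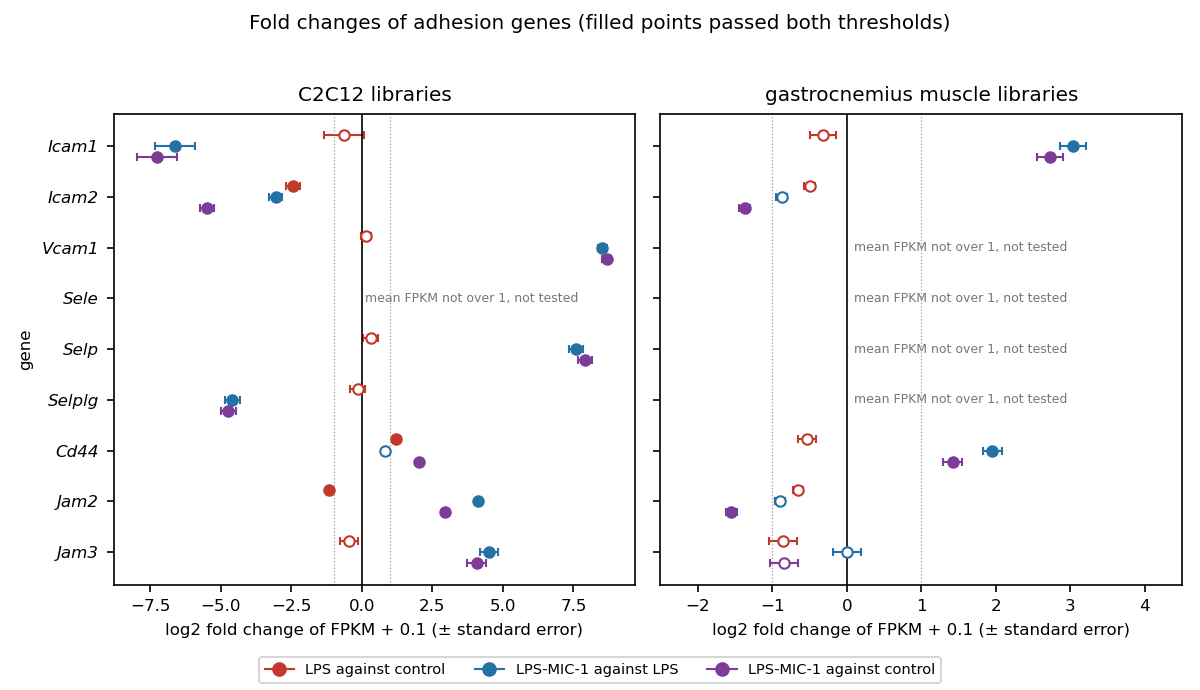
Log2 fold change of FPKM + 0.1 with its standard error for each tested gene in C2C12 (left) and muscle (right), with 1 colour per comparison; filled points passed the thresholds on fold and adjusted p, and dotted lines mark a log2 fold change of 1 in either direction. Icam1 lies at -6.63 in C2C12 and at 3.04 in muscle for LPS-MIC-1 against LPS, and Jam2 at 4.10 and -0.89.

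Levels in muscle were also set against the endothelial marker sum of the same library. Icam2 was at 4.95% ± 0.17 (SD, n = 3) of that sum in control samples, 4.996% ± 0.18 after LPS and 3.62% ± 0.044 after LPS-MIC-1. For Icam2, LPS thus overlapped control, while all LPS-MIC-1 values stayed lower. Jam2 was at 5.86% ± 0.18, 5.32% ± 0.35 and 3.79% ± 0.14 in the same order, again with LPS-MIC-1 lowest. Jam3 was at 2.97% ± 0.65, 2.33% ± 0.52 and 3.12% ± 0.47, with overlap between all groups. Icam1 went from 0.646% ± 0.072 and 0.734% ± 0.16 to 8.97% ± 0.79, and Selp from 0.0925% ± 0.045 and 0.0591% ± 0.033 to 1.096% ± 0.32. Cd44, which many cell types express, went from 0.989% ± 0.079 and 0.951% ± 0.096 to 5.36% ± 0.59. Vcam1 was at 0.560% ± 0.14, 0.738% ± 0.16 and 1.36% ± 0.18 in the same order, and on this scale LPS-MIC-1 lay above both other groups. Selplg was at 0.392% ± 0.037, 0.579% ± 0.097 and 1.04% ± 0.35, with LPS above control and LPS-MIC-1 overlapping LPS.

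**Figure D5:**
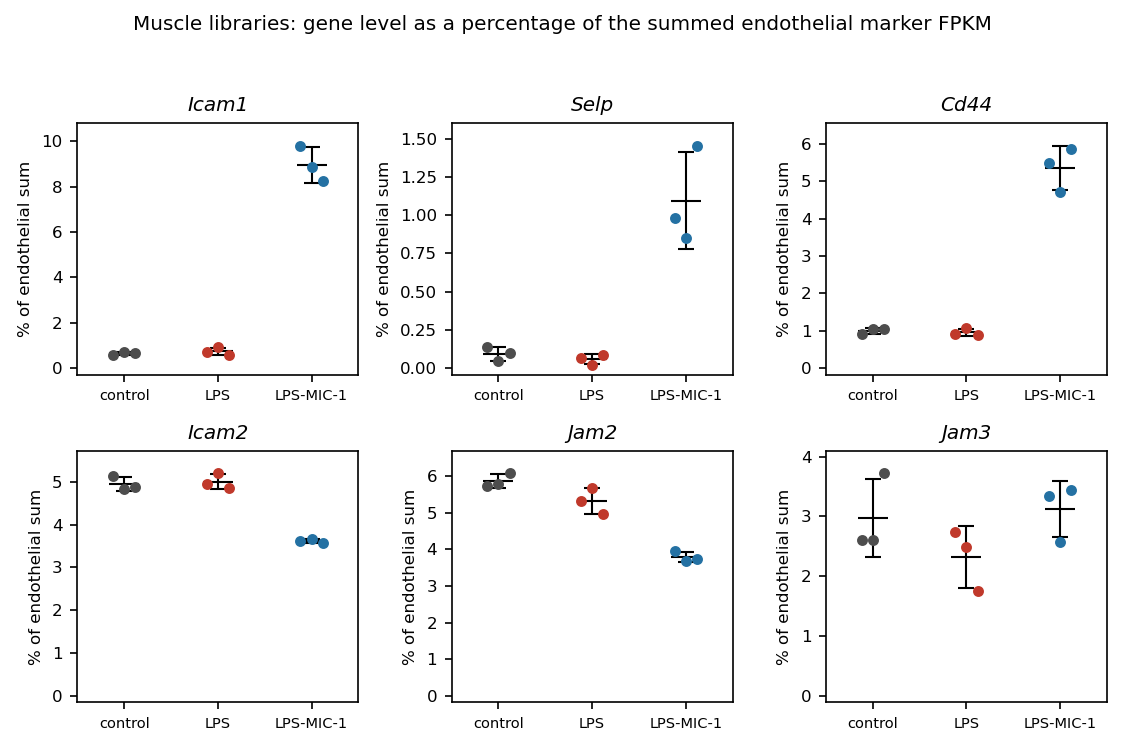
Level of 6 adhesion genes in each gastrocnemius library as a percentage of the summed FPKM of 14 endothelial markers, with the mean and SD of 3 libraries as bars. Icam1, Selp and Cd44 are highest in LPS-MIC-1, Icam2 and Jam2 are lowest there, and Jam3 overlaps between groups.

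Other genes of the adhesion pathway were counted from lists. In C2C12, 51 list genes were tested, and 10 of them (19.6%) passed the filter only through their highest group, beside 12.3% of all tested genes. Such genes had to differ between groups once tested, so the list counts are a description. Of 9 integrin subunits that bind these ligands, 5 passed the filter. From LPS to LPS-MIC-1, 3 of them fell and 1 rose, with a median log2 fold change of -5.03 beside -0.05 over all genes. Beside this and the following lists, 25.6% of all tested genes fell and 24.3% rose. Itgam went from 149 ± 2.00 to 1.71 ± 2.52 FPKM (SD, n = 3), and Itgb2 from 88.5 ± 8.51 to 2.05 ± 1.24 FPKM. Itgam and Itgb2 encode the chains of Mac-1, a receptor of Icam1. Of 13 tested selectin ligand and glycosylation genes, 3 rose and 3 fell (median 0.08), and the sialomucins Cd34 (log2 fold change 9.67) and Podxl (6.14) had the largest rises. Of 9 tested junction and transmigration genes, 3 rose and 2 fell (median 0.30), with Tjp1, a scaffold of tight junctions, at 6.30 and Cd47, a ligand of SIRPα, at -4.55. Cd34, Podxl and Tjp1 were near 0 in LPS, with means of 0.0345, 0.0421 and 0.00292 FPKM.

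Cd44 has its own partners. Of 7 tested hyaluronan and CD44 partner genes in C2C12, 3 rose and 2 fell from LPS to LPS-MIC-1 (median 0.42), beside 24.3% and 25.6% of all tested genes. Has1, a hyaluronan synthase, was at 83.3 ± 7.47 FPKM in LPS-MIC-1 against 0.144 ± 0.124 in LPS, and Vcan, a hyaluronan-binding proteoglycan, at 40.2 ± 4.26 against 0.0447 ± 0.048. Among 6 genes that link the tails of these molecules to actin or cut them from the surface, 2 fell and 0 rose (median -0.59). These were the proteases Mmp9 (log2 fold change -6.24) and Adam17 (-3.46). A further list, called inducers here, held cytokines, their receptors, Tlr4 and the NF-κB genes Nfkb1, Rela and Nfkbia, the last an inhibitor. Of 11 tested, 5 fell and 1 rose (median -1.15), with Il1b at -7.97 and Tnf at -7.12.

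Between LPS and control in C2C12, the same lists gave 1 higher and 1 lower of 5 for the integrins and 0 higher and 1 lower of 13 for the selectin ligands. They gave 5 higher and 0 lower of 9 for the junction genes, 1 and 1 of 7 for the CD44 partners, 3 and 0 of 6 for the linkers and proteases, and 4 and 0 of 11 for the inducers. In this order, the list medians were -0.24, -0.04, 1.497, 0.93, 0.42 and 2.15 on the log2 scale, beside 0 over all genes. Of all tested genes, 10.9% were called higher and 10.0% lower in this comparison. Itgb7 rose from 5.12 ± 0.55 to 80.6 ± 1.99 FPKM, and Itga4, a chain of the Vcam1 receptor, fell from 325 ± 8.58 to 70.1 ± 1.61 FPKM (SD, n = 3). Among the inducers, Il1a rose by 8.54 and Tnfrsf1b by 4.12 on the log2 scale.

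In muscle, none of these 6 lists had a gene called between LPS and control by limma, with 37 genes tested (0 at an unadjusted p under 0.05 with the same fold, and 17, or 45.9%, at any fold, beside 29.6% of all genes). Of all tested genes, 0.654% were called higher and 0.591% lower in that comparison. Of the 37 list genes, 3 (8.11%) passed the filter only through their highest group, beside 5.68% of all tested genes. The list medians of LPS against control lay between -0.49 (junction genes) and 0.11 (selectin ligands), beside 0.01 over all genes. The 6 inducers tested in muscle were Tnfrsf1a, Tnfrsf1b, Il1r1, Nfkb1, Rela and Nfkbia, with no cytokine among them. From LPS to LPS-MIC-1, 2 of these 6 rose and 0 fell, with a list median of 0.97 beside -0.01 over all genes. Beside this and the following lists, 9.67% of all tested genes rose and 5.44% fell. Nfkbia had 112 ± 4.61 FPKM against 23.3 ± 0.37 (SD, n = 3) and rose by 2.26 on the log2 scale (SE 0.063, limma adjusted p = 2.54e-08), and Il1r1 rose by 1.68. Of 11 junction genes (median 0.28), Cldn5 and Esam, which are junction proteins of endothelium, rose by 2.46 and 1.06, and 9 were not called. Of 11 selectin ligand and glycosylation genes (median -0.45), 2 rose and 2 fell, with B4galt1 at 1.88 and Podxl at -1.97.

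Of 4 tested CD44 partner genes in muscle (median 1.20), Spp1 and Mmp14 rose, by 4.09 and 1.54 on the log2 scale, and Msn was the 1 of 3 linkers (median 0.23) that rose, by 1.07. Spp1 (osteopontin) had 9.38 ± 10.5 FPKM in LPS-MIC-1, a spread as large as its mean, against 0.421 ± 0.39 in LPS. Neither of the 2 tested integrin subunits was called (median 0.11).

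The genes with the most similar profiles were found from the root-mean-square difference of centred log2(FPKM + 0.1) values over the 9 libraries of an experiment. In C2C12, those most like Icam1 were P2ry6 (0.108), Arhgap30 (0.129) and Irf5 (0.143). The nearest to Selp were Gnao1 (0.060), Hoxc11 (0.079) and Yap1 (0.086), and to Vcam1 they were Fam19a5 (0.149), Anxa8 (0.155) and Chrng (0.160), the last a subunit of the fetal muscle acetylcholine receptor. For Cd44 they were Plscr1 (0.074), Mfge8 (0.075) and Jund (0.091).

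In muscle, the profile nearest to Icam1 was that of Akap12 (0.131), followed by Mpa2l (0.152) and Zfp36 (0.162). For Icam2 the list was Fam193b (0.060), Eng (0.064) and 2310007L24Rik (0.080), where Eng, the endothelial protein endoglin, is also in the endothelial marker list. Jam2 was nearest to Pisd-ps1 (0.083), Npr1 (0.089) and Icam2 (0.095). Near Cd44 were 2310050B05Rik (0.113), Irf1 (0.130) and A930001N09Rik (0.131).

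In the GRCm38.p6 annotation Selp lies beside F5, and Icam1 lies beside Icam4 and Icam5. The expression of these neighbours was looked at after the values of Selp and Icam1 had been seen. In the C2C12 libraries labelled LPS-MIC-1, where Selp had 21.9 to 25.1 FPKM, F5 had at most 0.0959 FPKM. In LPS-MIC-1-treated muscle, where Icam1 had 5.99 to 7.54 FPKM, Icam4 had between 1.004 and 1.44 FPKM and Icam5 at most 0.0710 FPKM. Icam4 had 2.16, 1.66 and 1.53 FPKM in LPS-treated muscle, above the range of LPS-MIC-1.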

How the data were processed

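RNA-seq libraries of C2C12 cells and mouse gastrocnemius were grouped by their labels, 3 per group. Per the labels and the study's methods, the authors ran kallisto and tximport and deposited 1 FPKM value for each gene in each library (genome build mm9 per the submitters' processing notes). The authors' DESeq2 tables hold base means (a normalized count signal), fold changes and p-values. Of these only the base means were read, and only for a check of a table. In the muscle file, 11 columns carry no name, 9 of them of per-sample values, and these were not used. Reads per library are unknown, so no counting interval was given. Positions and sequences are not printed, since no genome of the files' build was used here, and names of neighbouring genes came from a RefSeq table of GRCm38.p6.

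Each experiment was fitted apart with limma 3.58.1 in R 4.3.3 on log2(FPKM + 0.1), with group means, 1 spread per gene over 9 libraries and eBayes with a trend. Adjustment followed Benjamini-Hochberg across genes whose mean FPKM was over 1. A call needed a log2 fold change over 1 in size and an adjusted p under 0.001 (C2C12) or 0.05 (muscle). The cutoffs are the study's. For muscle, it names an adjusted p for its clustered genes, while the legend of its counts gives P without the word adjusted. A gene outside the filter is reported by its values. A log2 fold change of FPKM + 0.1 understates the change of low genes, and against values at 0 it is no bound. As alternatives, the pseudocount was set to 1 or 0.01, the FPKM filter was dropped (a gene then had to exceed 0 in 3 or more libraries) or raised to a mean over 5, and values were scaled by median ratios or by quantiles. The eBayes trend was dropped, the fit was limited to compared libraries, a replicate block was added, p was left unadjusted, and each library was left out. The script was tested on simulated data.

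The genes, the pathway and marker lists and the rule for other named genes were chosen with earlier results of these data known. That rule takes, from each pathway list, the 2 called genes with the largest change per comparison, from each marker list the 2 most abundant genes, and the 3 genes with the most similar profile to each tested member. Genes beside Icam1 and Selp, and single genes listed at 0, were chosen after their values were seen. Of the marker genes, Cd68 and Ly6g were not found by symbol. Lymphocyte markers summed to at most 1.30 FPKM in muscle and 7.97 in C2C12, and fibroblast markers to between 130.6 and 162.0 FPKM in muscle and to at most 2.09 in C2C12 libraries labelled control or LPS against 463.9 to 561.9 in LPS-MIC-1. Plots were made in Python 3.11.15 with matplotlib 3.10.9.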

Additional observations from a re-analysis of the deposited data

Results flagged for a closer look

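For Cd44, Icam1, Jam2 and Jam3, at least 1 labelled comparison went in opposite directions in the 2 experiments, on log2(FPKM + 0.1). The groups compared did not overlap in either experiment. The share of all genes with this pattern was not counted, so the values are a description. These differences between experiments were not tested, because the tables were normalized separately, and the C2C12 libraries labelled control and LPS carry macrophage markers. Cd44 differed between LPS and control by 1.20 in C2C12 and by -0.53 in muscle. Between LPS-MIC-1 and LPS, Icam1 differed by -6.63 and 3.04, and Jam2 by 4.10 and -0.89, in C2C12 and muscle respectively. Between LPS-MIC-1 and control, Icam1 differed by -7.25 and 2.72, Jam2 by 2.96 and -1.55, and Jam3 by 4.07 and -0.84.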

How the results depend on the processing

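Across 726 values of the tested adhesion genes under the alternatives, 722 kept their side of the thresholds, 3 lost the call and 1 gained it. Among values with a call in the main or the alternative setting, 0 reversed direction. Differences without a call could change sign. Jam3 in muscle LPS-MIC-1 against LPS, for example, was at 0.01 in the main setting and at -0.11 with quantile normalization. The count of lower genes between LPS and control in C2C12 was 1 in place of 2 with a pseudocount of 1 (Jam2 at -0.73), with a pseudocount of 0.01 (Icam2, limma adjusted p = 0.0206) and with a mean FPKM over 5. Testing genes over a mean of 5 FPKM gave 0 higher genes in place of 2 in muscle, for LPS-MIC-1 against LPS and against control, since Icam1 and Cd44 were then not tested. With quantile normalization, 1 gene in place of 0 was lower in muscle LPS-MIC-1 against LPS (Jam2 at -1.02), where this scaling moved the median of all genes from -0.00896 to -0.116, and from 0.00952 to -0.101 against control. With a pseudocount of 1, Icam2 in C2C12 LPS-MIC-1 against LPS was at -0.997, just under the fold threshold. Leaving out 1 library at a time changed no count of adhesion genes.

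Over all genes, the number lower in muscle LPS-MIC-1 against LPS was 515, with 275 at a pseudocount of 1, 798 without a filter and 204 over 5 FPKM, and the number higher was 916, or 452 over 5 FPKM. Against control it was 580, with 341, 915 and 215 in the same order, and the number higher was 884, or 462 over 5 FPKM. Muscle LPS against control gave 62 higher and 56 lower, with 37 and 34 at a pseudocount of 1, 31 and 26 over 5 FPKM, 88 lower without a filter and 94 lower at an unadjusted p. In C2C12, LPS-MIC-1 against control gave 2300 higher, or 1533 over 5 FPKM.

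Same-numbered samples of different groups did not deviate together, with r between -0.0757 and 0.0573 in C2C12 and between -0.0540 and 0.0823 in muscle, and 0 of 9 pairs over 0.1 in each. With a replicate block, the counts of adhesion genes called stayed at 1 higher and 2 lower (LPS against control), 4 and 3 (LPS-MIC-1 against LPS) and 5 and 3 (LPS-MIC-1 against control) in C2C12, and at 0 and 0, 2 and 0, and 2 and 2 in muscle. Depth limits Sele most, whose base means were under 1 normalized count.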

Other observations

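The authors' base mean of Sele was 0.485 in the muscle table of control and LPS-MIC-1, and between 0.183 and 0.598 in the C2C12 tables. In the table of muscle control and LPS, the base mean of 7 of the 9 adhesion genes was 0 and that of Cd44 was 5288, whereas the FPKM file lists 8 of the 9 genes above 0 in those libraries. The values of that table were therefore not used.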
